A study of Mus musculus with 8 samples.

Results

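The type I interferon response genes described here are 42 genes of the mouse left ventricle, listed by name and found in the deposited table by their gene symbols. All 42 were present among the 14578 genes of the table, and 40 of them were tested, since Zbp1 and Oasl1 were too low. In all, 3 genotypes were compared at 6 months of age, all in a C57 genetic background. The mdx sln+/- group (3 libraries) carries the mdx mutation and is heterozygous for Sln. The mdx group (3 libraries) carries the mdx mutation alone, a defect of Dmd that leaves muscle without dystrophin, and the submitters use it as a heart failure model. The WT group (2 libraries) carries neither. Sln encodes sarcolipin, a small inhibitor of the calcium pump of the sarcoplasmic reticulum. Whether each library is a separate animal is not stated in the labels; p-values therefore reflect only the spread between these samples, which may be technical.

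Type I interferons are secreted when a cell detects foreign or misplaced nucleic acid. They bind the receptor pair Ifnar1 and Ifnar2, whose kinases activate Stat2 among other factors; with Irf9 it is part of a complex that binds the interferon-stimulated response element (ISRE) and switches on antiviral genes. The gene products act at each step of this circuit, as sensors, transcription factors, effectors and inhibitors, and many are made at a low level in healthy tissue, in resident macrophages and endothelium as well as in muscle cells.

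Dmd, the mutated gene, had log2 levels of 4.09, 4.10 and 4.25 in mdx sln+/- 1, 2 and 3, of 4.30, 4.32 and 4.22 in mdx 1, 2 and 3, and of 6.60 and 6.98 in WT 1 and 2. All 6 libraries of the 2 mdx genotypes were far below both WT libraries in Dmd RNA, and dystrophin protein was not measured. Sln itself was not analysed here, so the sln+/- label was not checked against its gene. Cardiomyocyte markers were high in all libraries, and 0 of the 8 passed the test against WT in either mdx genotype (limma, adjusted p under 0.05). Y-linked levels differed within groups. Ddx3y had 3.94, 4.66 and 1.76 in mdx sln+/-, 6.15, 4.57 and 6.37 in mdx, and 6.64 and 1.29 in WT, so that mdx sln+/- 3 and WT 2 were the lowest, and the sexes were not given in the labels. A contrast taken out of the deposited values ties mdx 2 and mdx sln+/- 2 to the other libraries of these genotypes. The Y-linked levels of mdx 2 and mdx sln+/- 2 are therefore uncertain.

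The ISRE is the sequence that ties many of these genes together, so the promoters that carry it are shown first. The windows ran from 250 bases before to 50 bases after each RefSeq start (GRCm38.p6), and 33 of the 42 genes had one. The core, GAAA, any 2 bases and GAAA again (TTTC, any 2 bases and TTTC when read on the other strand), was found in the windows of 14 of the 33 genes, or 42.4%, against 3.99% of the 27025 genes with a window. The shorter gamma-activated site (GAS), TTC, any 3 bases and GAA, which reads the same on both strands and may overlap an ISRE, was in 9 of the 33, or 27.3%, against 9.55% of all. Below are the 250 bases before the start of 5 genes with the core, of Sp100 as a gene with a large rise and no core in these letters, and 30 bases around the only core of Eif2ak2, which lies after its start. Capitals mark every ISRE core, and in Isg15 they mark 3 cores that overlap.
Isg15, chr4:156200819-156201068, minus strand: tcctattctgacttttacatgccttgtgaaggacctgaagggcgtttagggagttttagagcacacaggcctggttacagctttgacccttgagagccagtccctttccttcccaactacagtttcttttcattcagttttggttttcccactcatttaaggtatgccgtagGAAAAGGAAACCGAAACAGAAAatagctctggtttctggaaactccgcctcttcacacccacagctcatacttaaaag
Rsad2, chr12:26456453-26456702, minus strand: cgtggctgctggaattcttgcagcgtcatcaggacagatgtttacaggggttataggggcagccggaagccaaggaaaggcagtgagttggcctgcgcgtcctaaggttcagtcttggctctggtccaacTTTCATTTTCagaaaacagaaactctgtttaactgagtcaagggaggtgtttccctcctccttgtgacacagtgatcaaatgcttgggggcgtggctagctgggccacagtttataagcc
Ifit1, chr19:34640639-34640888, plus strand: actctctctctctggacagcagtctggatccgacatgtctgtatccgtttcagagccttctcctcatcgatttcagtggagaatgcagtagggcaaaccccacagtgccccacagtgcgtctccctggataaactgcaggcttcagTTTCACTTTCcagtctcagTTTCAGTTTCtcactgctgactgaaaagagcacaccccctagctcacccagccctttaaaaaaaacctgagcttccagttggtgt
Ifit3, chr19:34583279-34583528, plus strand: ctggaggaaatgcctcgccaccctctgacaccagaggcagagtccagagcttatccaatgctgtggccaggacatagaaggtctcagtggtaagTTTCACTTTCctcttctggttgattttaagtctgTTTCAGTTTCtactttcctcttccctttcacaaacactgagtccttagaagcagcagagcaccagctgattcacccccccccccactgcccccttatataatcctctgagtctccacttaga
Ifit3b, chr19:34607707-34607956, plus strand: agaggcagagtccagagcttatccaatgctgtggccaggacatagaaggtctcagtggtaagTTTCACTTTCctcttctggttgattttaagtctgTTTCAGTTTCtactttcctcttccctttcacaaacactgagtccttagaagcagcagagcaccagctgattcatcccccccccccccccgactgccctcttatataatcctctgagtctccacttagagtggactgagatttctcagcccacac
Sp100, chr1:85649738-85649987, plus strand: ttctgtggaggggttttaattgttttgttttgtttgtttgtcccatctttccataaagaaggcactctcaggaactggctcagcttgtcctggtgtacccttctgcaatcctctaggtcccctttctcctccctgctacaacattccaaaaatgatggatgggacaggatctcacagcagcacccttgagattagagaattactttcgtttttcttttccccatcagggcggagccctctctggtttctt
Eif2ak2, chr17:78882535-78882564, minus strand: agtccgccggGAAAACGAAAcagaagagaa

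The cores of Ifit3 and Ifit3b stand in the same letters, and the RefSeq starts place them at -156 and -122 in Ifit3 and at -188 and -154 in Ifit3b. In Isg15 the 3 cores begin at -78, -72 and -66, and in Rsad2 the only core begins at -120. The other members with a core were Oas1a, Trim30a, Bst2, Ifitm3, Ddx58, Ifi203, Ifih1 and Stat2. A match describes the letters of the window and does not show that a factor binds there.

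Most of these genes were higher in both mdx genotypes than in WT. Against WT, 25 of the 40 tested genes rose in mdx sln+/- and 28 rose in mdx, and 0 fell in either (limma, adjusted p under 0.05 over all 13783 genes). Of all genes tested, 9.41% were called higher in mdx sln+/- and 8.15% in mdx, and 6.5% and 6.94% lower. The median log2 fold change of the 40 genes was 0.73 in mdx sln+/- and 0.70 in mdx, beside 0.05 and 0.02 over all genes tested. The members were chosen with earlier results of these data known, so their gap to all genes is no independent test. Log2 fold changes here are differences of log2(value + 1), which understates the change of low genes, and the value after ± is limma's standard error unless SD is named. Dhx58 passed the filter on low values with no WT library at the minimum, so its presence among the tested genes itself required a difference. In bulk ventricle, more cells of a type and more RNA per cell cannot be told apart. Over all genes the calls in mdx sln+/- were 1297 higher and 896 lower, while median-ratio scaling gave 931 higher and 1137 lower and upper-quartile scaling 1000 higher and 1079 lower; among the 40 members those scalings called 23 and 24.

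Counted over all 42 genes, every mdx sln+/- library lay above both WT libraries in 37, and every mdx library did so in 37. No overlap in that direction was seen in 36.4% of all tested genes for mdx sln+/- and in 27.8% for mdx. Ifi204 was the 1 gene with every library of either genotype below both WT libraries, where 23.5% and 23.6% of all genes did the same. Irf1, Eif2ak2 and Ifi203 overlapped WT in both genotypes, Oasl1 in mdx sln+/- and Ifi27l2a in mdx. Both comparisons share the same 2 WT libraries.

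The number of calls rested on few libraries. With mdx sln+/- 3 and WT 2 both left out, a choice made after seeing the Y-linked levels, 0 members were called in mdx sln+/- and 1 in mdx, with WT 1 as the lone WT library, while the median log2 fold changes were 0.73 and 0.67. Library names came in an indexed style (mdx sln+/- 1 and 2, mdx 1 and 2) and a plain style (all others), and with name style as a term 14 and 11 members were called, with medians of 0.63 and 0.59. Within the plain style, mdx sln+/- 3 was above both WT libraries in 38 of the 42 genes and mdx 3 in 38, against 46.6% and 43.2% of all genes. Left out 1 at a time, mdx sln+/- 1, mdx sln+/- 3 and WT 2 lowered the count in mdx sln+/- to 7, 15 and 14, and mdx sln+/- 1, mdx 1, WT 1 and WT 2 lowered that in mdx to 13, 16, 15 and 6. What the name style stands for is not given in the sources used here, and its part in the result was not tested beyond these values.

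**Figure D1:**
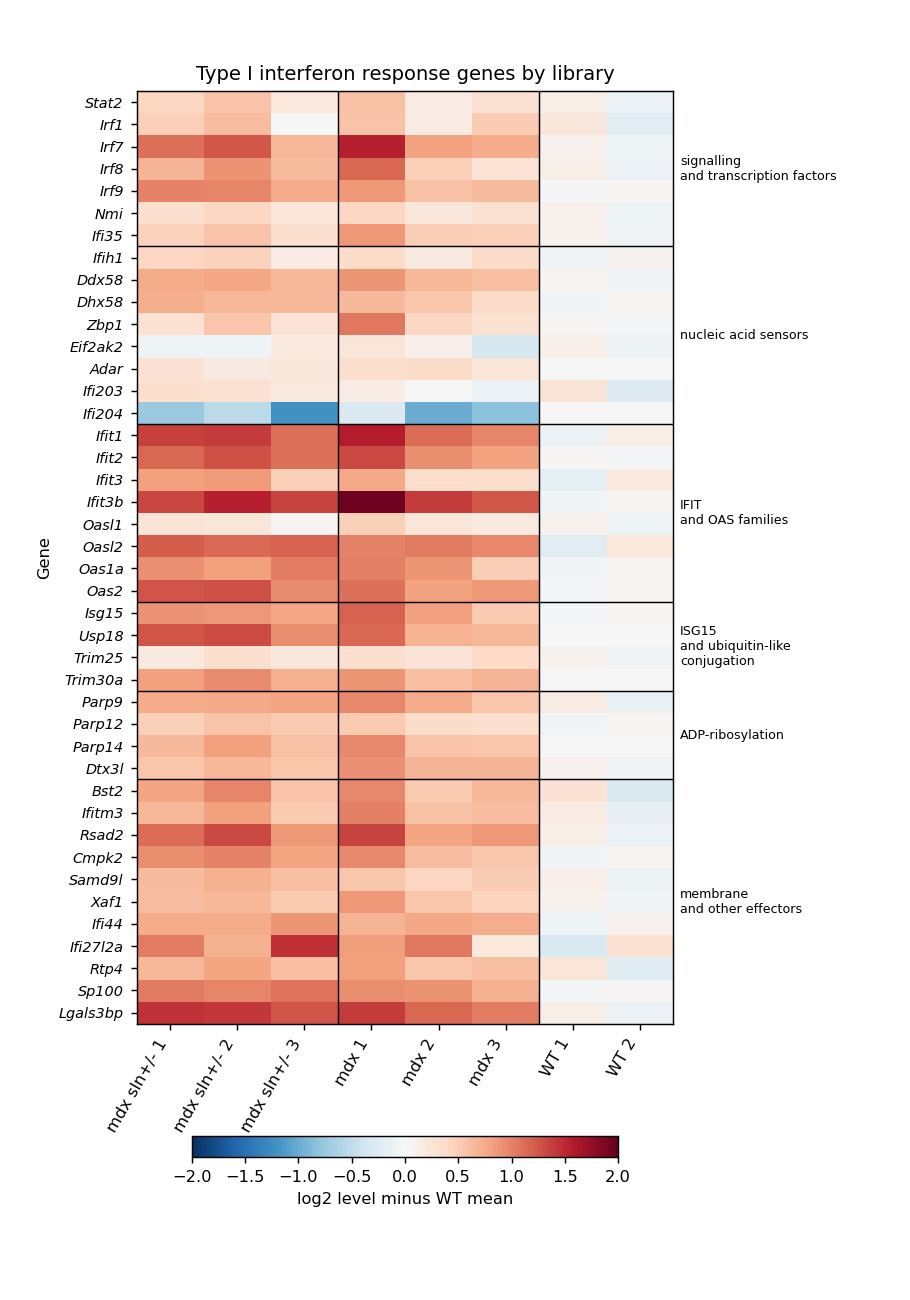
Log2 level of each of the 42 genes (rows, grouped by role) in each of the 8 libraries (columns), minus the mean of the 2 WT libraries; red is higher than WT and blue lower. Ifit1, Ifit3b and Lgals3bp are red in all 6 libraries of mdx sln+/- and mdx, Ifi204 is blue in all 6, and Eif2ak2 shows both colours.

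Of the 7 signalling proteins and transcription factors, 1 rose in mdx sln+/- and 2 rose in mdx, and all 7 had positive fold changes in both. Of all 13783 genes tested, 7970 had positive fold changes in mdx sln+/- and 7314 in mdx. The counts of this role list and those below are to be read beside the 9.41% and 8.15% of all genes called higher. Irf9, the DNA-binding partner of Stat2, had log2 levels of 4.15, 4.15 and 3.91 in mdx sln+/-, 4.03, 3.75 and 3.80 in mdx, and 3.13 and 3.20 in WT. Every library of both mdx genotypes was above both WT libraries. Irf9 rose by 0.91 ± 0.12 in mdx sln+/- (limma, adjusted p = 0.00695) and by 0.70 ± 0.12 in mdx (adjusted p = 0.0149). Exons of Irf9 overlap those of Rnf31 on the same strand, so some of their reads may not be told apart. Of the 42 members, 15 have exons that overlap those of another gene on either strand. Irf7, which amplifies interferon production, had levels of 3.22, 3.36 and 2.78 in mdx sln+/-, 3.67, 2.91 and 2.85 in mdx, and 2.20 and 2.03 in WT. The groups did not overlap with WT, but mdx 1 stood far above mdx 2 and 3, and the differences of 1.00 ± 0.29 and 1.03 ± 0.29 missed the threshold (limma, adjusted p = 0.0539 and 0.0525). Ifi35, an interferon-induced leucine zipper protein that pairs with Nmi, had 3.96, 4.08 and 3.83 in mdx sln+/-, 4.37, 4.01 and 3.98 in mdx, and 3.57 and 3.44 in WT. All libraries of both genotypes were above WT; its rise of 0.61 ± 0.15 in mdx passed (limma, adjusted p = 0.0355), while 0.45 ± 0.15 in mdx sln+/- did not (adjusted p = 0.0799). Irf1, a factor induced by several cytokines, had 4.46, 4.61 and 3.997 in mdx sln+/-, 4.57, 4.16 and 4.51 in mdx, and 4.22 and 3.77 in WT. Here mdx sln+/- 3 and mdx 2 lay below WT 1, and the differences were 0.36 ± 0.24 and 0.42 ± 0.24 (limma, adjusted p = 0.315 and 0.263). Stat2, Nmi and the myeloid factor Irf8 were above WT in every library with differences of 0.33 to 0.74 in mdx sln+/- and 0.32 to 0.63 in mdx, and none passed.

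Of the sensors of nucleic acid, 2 rose in mdx sln+/- and 3 rose in mdx, out of 7 tested. Ddx58 (RIG-I), a sensor of viral RNA ends, had log2 levels of 3.62, 3.66 and 3.55 in mdx sln+/-, 3.78, 3.55 and 3.49 in mdx, and 2.94 and 2.83 in WT. No library of the mdx genotypes reached down to WT, and the 2 genotypes overlapped each other. Ddx58 rose by 0.73 ± 0.12 in mdx sln+/- and by 0.72 ± 0.12 in mdx (limma, adjusted p = 0.00999 and 0.0113). By transcript, Ddx58-205, annotated without a reading frame, passed with 0.93 ± 0.19 and 1.055 ± 0.19 (limma, adjusted p = 0.0249 and 0.0205). The coding Ddx58-201 did not pass, with 0.49 ± 0.16 and 0.39 ± 0.16 (limma, adjusted p = 0.0972 and 0.182). A test of Ddx58-205 against the rest of its gene did not pass (limma diffSplice, adjusted p = 0.324 and 0.148). Dhx58 (LGP2), a helicase that tunes RIG-I signalling, had 1.52, 1.46 and 1.46 in mdx sln+/-, 1.44, 1.35 and 1.19 in mdx, and 0.74 and 0.86 in WT. All 3 mdx sln+/- libraries were above all 3 mdx libraries, and all 6 were above WT. It rose by 0.68 ± 0.12 and 0.53 ± 0.12 (limma, adjusted p = 0.0150 in mdx sln+/- and 0.0320 in mdx). Adar, the enzyme that edits adenosine in double-stranded RNA, had 3.94, 3.83 and 3.87 in mdx sln+/-, 3.99, 4.01 and 3.88 in mdx, and 3.64 and 3.65 in WT. The groups were separate from WT by a small margin, and its rise of 0.31 ± 0.08 in mdx passed (limma, adjusted p = 0.0473) while 0.24 ± 0.08 in mdx sln+/- did not (adjusted p = 0.0986). Exons of Adar overlap those of Chrnb2 on the other strand, and whether the authors counted by strand is not given in the sources used here.

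Eif2ak2 (PKR), a kinase that halts translation on double-stranded RNA, gave no call, and the window around its start holds an ISRE core. Its levels were 3.51, 3.51 and 3.79 in mdx sln+/-, 3.84, 3.70 and 3.28 in mdx, and 3.71 and 3.49 in WT. All 3 groups overlapped. The differences were 0.002 ± 0.19 in mdx sln+/- and 0.009 ± 0.19 in mdx (limma, adjusted p = 0.994 and 0.982), and their sign turned under median-ratio and upper-quartile scaling. The pyrin and HIN family protein Ifi204, a sensor of DNA, was the member with negative differences in both genotypes. It had levels of 2.88, 3.09 and 2.41 in mdx sln+/-, 3.33, 2.62 and 2.81 in mdx, and 3.62 and 3.63 in WT. Both WT libraries were above all others, and mdx sln+/- 3 was the lowest. The difference was -0.83 ± 0.27 in mdx sln+/- and -0.70 ± 0.27 in mdx, and neither passed (limma, adjusted p = 0.0731 and 0.117). With only WT and mdx sln+/- fitted it was -0.98 and passed (limma, adjusted p = 0.0278). In that fit the model's term for a contrast taken out of the deposited values takes up mdx sln+/- 2 alone. That estimate therefore rests on mdx sln+/- 1 and 3. Ifi203, a relative of Ifi204, had differences of 0.28 ± 0.16 and 0.01 ± 0.16 without a call, that in mdx turning sign under median-ratio scaling. Its transcript Ifi203-209 rose by 0.69 ± 0.14 and 0.60 ± 0.14 (limma, adjusted p = 0.0248 and 0.0417). Ifi203-201 rose by 0.78 ± 0.19 in mdx sln+/- (limma, adjusted p = 0.0457) and had no call in mdx. Ifi203-205 differed by -0.12 ± 0.15 and -0.27 ± 0.15 without a call. The neighbouring gene Mndal of the same family, which is no member, rose by 0.91 ± 0.12 in mdx sln+/- and by 0.82 ± 0.12 in mdx (limma, adjusted p = 0.00666 and 0.00898). Ifi204 matches Ifi211 at 96.9% over 1363 bases and Mndal at 95.7% over 776 bases, and Ifi203 matches Mndal at 96.1% over 762 bases, so the split of reads among these genes is uncertain. Ifih1 (MDA5) was above WT in all libraries with 0.35 ± 0.13 and 0.31 ± 0.13 and no call. Zbp1, a sensor of Z-form nucleic acid that was too low to test, had 0.55, 0.80 and 0.53 in mdx sln+/-, 1.31, 0.67 and 0.55 in mdx, and 0.27 and 0.23 in WT, so that mdx 1 stood apart from the rest.

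The IFIT and oligoadenylate synthetase (OAS) families had the highest median difference of the role lists. IFIT proteins bind foreign RNA and block its translation, and OAS enzymes make the messenger that activates RNase L. Of 7 tested, 6 rose in each genotype, with a median log2 fold change of 1.17 in mdx sln+/- and 0.99 in mdx. The 4 Ifit genes lie on chromosome 19 between 34550694 and 34650009 (GRCm38/mm10, GENCODE M21). Ifit3b had log2 levels of 2.41, 2.62 and 2.43 in mdx sln+/-, 3.02, 2.47 and 2.31 in mdx, and 1.02 and 1.12 in WT. All mdx sln+/- and mdx libraries were above 2 and both WT libraries near 1. Ifit3b rose by 1.41 ± 0.22 in mdx sln+/- and by 1.53 ± 0.22 in mdx (limma, adjusted p = 0.00901 and 0.00781). Its near copy Ifit3 had 3.19, 3.23 and 2.86 in mdx sln+/-, 3.13, 2.73 and 2.73 in mdx, and 2.18 and 2.57 in WT, with WT 2 close to the lowest mdx libraries. The differences of 0.72 ± 0.20 and 0.49 ± 0.20 did not pass (limma, adjusted p = 0.0519 and 0.142). The transcripts of Ifit3 and Ifit3b are 97.8% identical over 1700 bases, so how reads were split between them is uncertain. Summed before the logarithm, the pair had 3.75, 3.86 and 3.54 in mdx sln+/-, 3.99, 3.48 and 3.41 in mdx, and 2.47 and 2.83 in WT. The summed pair was above WT in every library, with differences of group means of 1.06 in mdx sln+/- and 0.97 in mdx.

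Ifit2 had log2 levels of 4.22, 4.33 and 4.17 in mdx sln+/-, 4.39, 3.99 and 3.87 in mdx, and 3.09 and 3.04 in WT. It rose by 1.18 ± 0.16 and 1.02 ± 0.16 (limma, adjusted p = 0.00667 in mdx sln+/- and 0.0100 in mdx), and no library of either overlapped WT. Ifit1 had 2.87, 2.90 and 2.61 in mdx sln+/-, 3.08, 2.62 and 2.49 in mdx, and 1.38 and 1.63 in WT. It rose by 1.28 ± 0.21 in mdx sln+/- and 1.22 ± 0.21 in mdx (limma, adjusted p = 0.0103 and 0.0130), and mdx 1 was its highest library. Oasl2, an OAS-like protein, had 2.80, 2.71 and 2.76 in mdx sln+/-, 2.57, 2.63 and 2.54 in mdx, and 1.38 and 1.79 in WT. All 3 mdx sln+/- libraries were above all 3 mdx libraries, by a small margin, and all were above WT. Oasl2 rose by 1.17 ± 0.14 and 0.99 ± 0.14 (limma, adjusted p = 0.00520 in mdx sln+/- and 0.00748 in mdx). Oas2 rose by 1.16 ± 0.15 and 0.92 ± 0.15, and Oas1a by 0.92 ± 0.17 and 0.80 ± 0.17. Oas1a is 97.6% identical to Oas1g over 1861 bases; with the pair summed, levels were 2.36, 2.25 and 2.34 in mdx sln+/-, 2.47, 2.39 and 2.14 in mdx, and 1.30 and 1.43 in WT, again with every library above WT. Oasl1, too low to test, had 0.59, 0.58 and 0.40 in mdx sln+/-, 0.81, 0.58 and 0.54 in mdx, and 0.43 and 0.24 in WT.

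**Figure D2:**
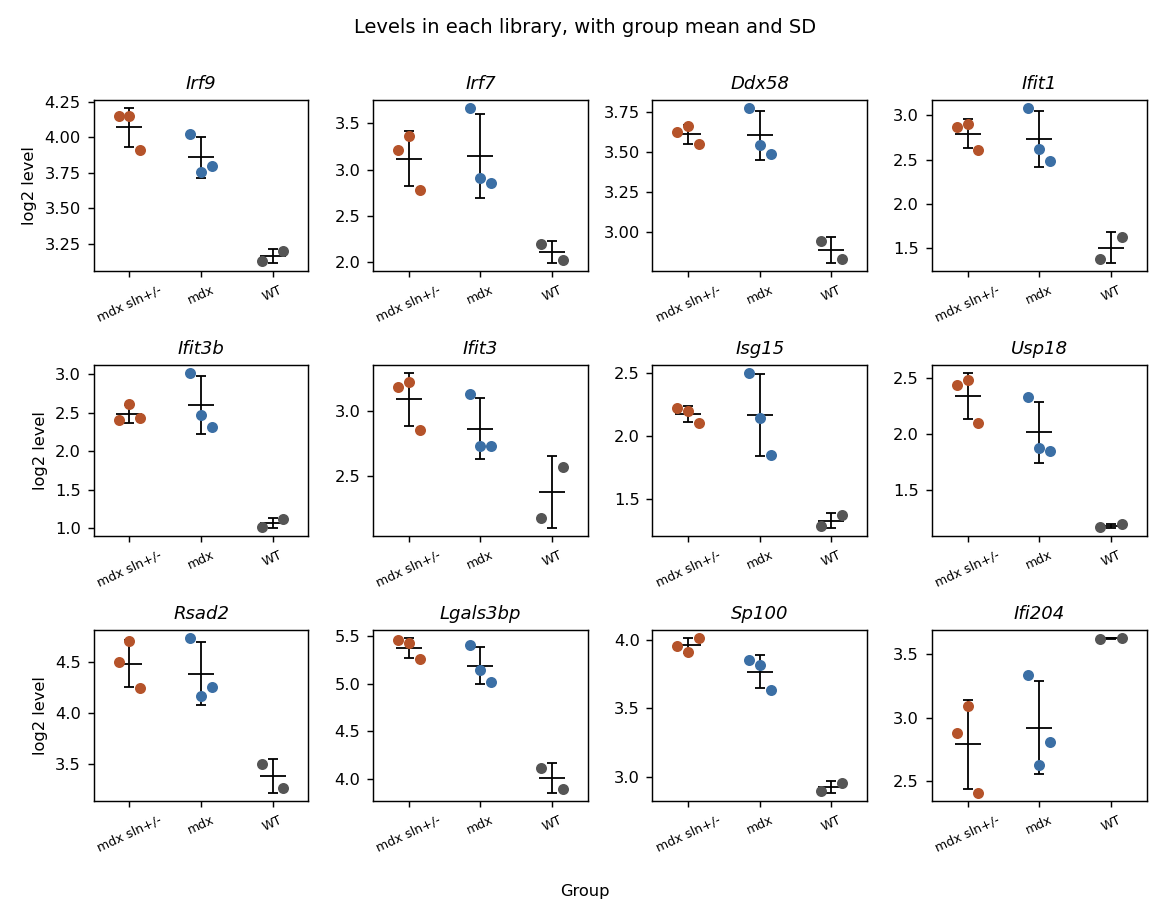
Log2 level (vertical axis) of 12 genes in each library, one panel a gene, with groups from left mdx sln+/-, mdx and WT; points are libraries, and bars the group mean with its SD (n = 3, 3 and 2). In 11 panels the WT points lie lowest, and in Ifi204 they lie highest. The vertical axes differ between panels and do not start at 0.

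Isg15, a ubiquitin-like protein that is joined to other proteins, and the enzymes around it followed the same direction, with 3 of 4 rising in mdx sln+/- and 4 of 4 in mdx. Isg15 had log2 levels of 2.22, 2.20 and 2.11 in mdx sln+/-, 2.51, 2.15 and 1.85 in mdx, and 1.29 and 1.37 in WT. The mdx libraries were more spread than those of mdx sln+/-, and all were above WT. Isg15 rose by 0.85 ± 0.19 in mdx sln+/- and by 0.84 ± 0.19 in mdx (limma, adjusted p = 0.0284 and 0.0297). Its transcript also matches AC151275.1 at 95.2% over 482 bases. Usp18, which removes Isg15 from proteins and restrains the interferon receptor, had 2.44, 2.49 and 2.10 in mdx sln+/-, 2.33, 1.87 and 1.85 in mdx, and 1.16 and 1.19 in WT. The WT libraries were nearly equal and far below the rest. Usp18 rose by 1.16 ± 0.20 and 0.84 ± 0.20 (limma, adjusted p = 0.0117 in mdx sln+/- and 0.0313 in mdx). Trim30a, a ubiquitin ligase known in mouse as a brake on inflammatory signalling, had 3.30, 3.43 and 3.19 in mdx sln+/-, 3.37, 3.08 and 3.17 in mdx, and 2.48 and 2.48 in WT, with every library above WT. It rose by 0.83 ± 0.13 and 0.72 ± 0.13 (limma, adjusted p = 0.00896 in mdx sln+/- and 0.0140 in mdx). Trim25, the ligase that activates RIG-I and also conjugates Isg15, had 4.88, 5.004 and 4.91 in mdx sln+/-, 5.01, 4.94 and 5.09 in mdx, and 4.75 and 4.62 in WT. The margin over WT was narrow, and the rise of 0.33 ± 0.09 passed in mdx (limma, adjusted p = 0.0451) while 0.24 ± 0.09 in mdx sln+/- did not (adjusted p = 0.0977).

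All 4 genes of ADP-ribosylation rose in both genotypes. These enzymes attach ADP-ribose to proteins, and Dtx3l is the ubiquitin ligase that works in a complex with Parp9. Dtx3l had log2 levels of 4.09, 4.21 and 4.09 in mdx sln+/-, 4.46, 4.21 and 4.21 in mdx, and 3.62 and 3.45 in WT. It was the 1 member with every mdx sln+/- library below every mdx library, although mdx 2 and 3 were barely above mdx sln+/- 2, and all were above WT. Dtx3l rose by 0.59 ± 0.11 in mdx sln+/- and by 0.76 ± 0.11 in mdx (limma, adjusted p = 0.0176 and 0.00915). Parp9 had 4.01, 4.03 and 4.05 in mdx sln+/-, 4.22, 4.01 and 3.83 in mdx, and 3.41 and 3.12 in WT, all above WT. It rose by 0.77 ± 0.14 and 0.76 ± 0.14 (limma, adjusted p = 0.0157 in mdx sln+/- and 0.0173 in mdx). Dtx3l and Parp9 lie head to head on chromosome 16 and share 367 identical bases of exon on opposite strands, so some of their reads may not be told apart. Parp14 had 4.68, 4.84 and 4.62 in mdx sln+/-, 4.99, 4.59 and 4.58 in mdx, and 4.04 and 4.01 in WT, with mdx 1 the highest and WT the lowest. It rose by 0.69 ± 0.15 and 0.70 ± 0.15 (limma, adjusted p = 0.0240 in mdx sln+/- and 0.0234 in mdx). Parp12 had 4.10, 4.20 and 4.16 in mdx sln+/-, 4.15, 3.99 and 3.96 in mdx, and 3.57 and 3.68 in WT, with a smaller but complete separation from WT. It rose by 0.52 ± 0.09 and 0.41 ± 0.09 (limma, adjusted p = 0.0146 in mdx sln+/- and 0.0315 in mdx).

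Among the 11 membrane and other effectors, 9 rose in each genotype. Lgals3bp, a secreted glycoprotein that binds galectins, had log2 levels of 5.46, 5.42 and 5.26 in mdx sln+/-, 5.40, 5.15 and 5.02 in mdx, and 4.11 and 3.89 in WT. Every library of both mdx genotypes was well above both WT libraries. Lgals3bp rose by 1.38 ± 0.14 in mdx sln+/- and by 1.19 ± 0.14 in mdx (limma, adjusted p = 0.00309 and 0.00475). Sp100, a protein of nuclear bodies, had 3.96, 3.91 and 4.02 in mdx sln+/-, 3.85, 3.82 and 3.64 in mdx, and 2.89 and 2.96 in WT. The 3 mdx sln+/- libraries were above the 3 mdx libraries, and all were above WT. It rose by 1.04 ± 0.10 and 0.85 ± 0.10 (limma, adjusted p = 0.00263 in mdx sln+/- and 0.00491 in mdx); stretches of its transcripts match Gm2619, Gm7592 and Gm7582 at 98.3% to 99.1%. Rsad2 (viperin), an enzyme that makes a chain-terminating nucleotide against viral polymerases, had 4.50, 4.70 and 4.24 in mdx sln+/-, 4.74, 4.16 and 4.25 in mdx, and 3.50 and 3.26 in WT. Its libraries were spread within each genotype but all lay above WT, and it rose by 1.10 ± 0.21 and 1.00 ± 0.21 (limma, adjusted p = 0.0175 in mdx sln+/- and 0.0236 in mdx). Its neighbour on chromosome 12, the nucleotide kinase Cmpk2, rose by 0.90 ± 0.15 and 0.71 ± 0.15.

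Ifi44, an interferon-induced protein of the cytoplasm, had log2 levels of 1.75, 1.75 and 1.90 in mdx sln+/-, 1.69, 1.78 and 1.74 in mdx, and 0.93 and 1.10 in WT. The 6 libraries of both mdx genotypes lay close together, well above WT, and it rose by 0.78 ± 0.12 and 0.72 ± 0.12 (limma, adjusted p = 0.00851 in mdx sln+/- and 0.0115 in mdx). Ifi27l2a, a small membrane protein, had 3.54, 3.23 and 3.97 in mdx sln+/-, 3.35, 3.57 and 2.73 in mdx, and 2.22 and 2.81 in WT. It was the most spread member, and mdx 3 lay below WT 2. The differences of 1.06 ± 0.33 and 0.70 ± 0.33 did not pass (limma, adjusted p = 0.0690 and 0.191). Bst2 (tetherin), which holds budding virus at the membrane, had 0.78 ± 0.22 and 0.72 ± 0.22 without a call (limma, adjusted p = 0.0543 and 0.0711). Ifitm3, which blocks the entry of virus, Samd9l, Xaf1 and Rtp4 rose in both genotypes, by 0.60 to 0.69 in mdx sln+/- and by 0.50 to 0.74 in mdx.

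**Figure D3:**
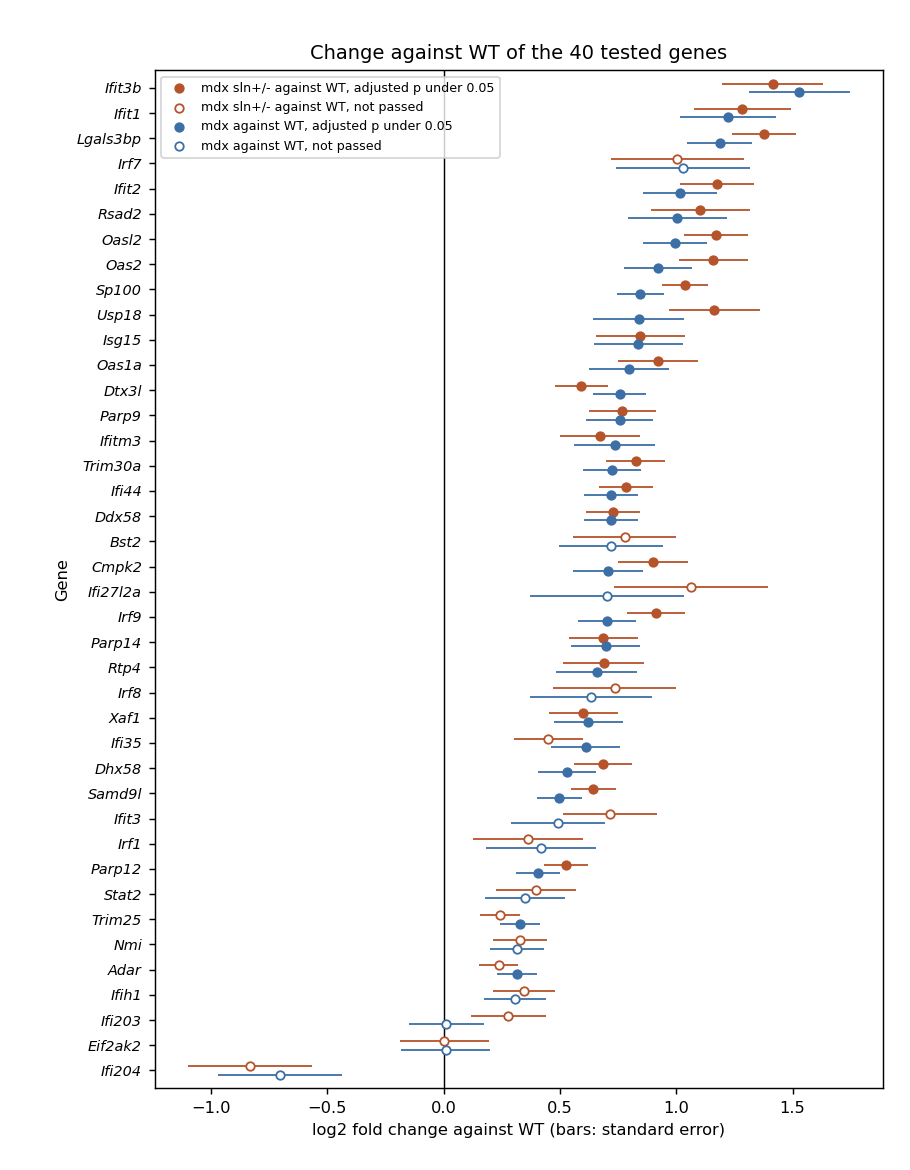
Log2 fold change against WT (horizontal axis) with its standard error for the 40 tested genes, mdx sln+/- above mdx in each row; filled points passed an adjusted p under 0.05 and open points did not. 39 of 40 points lie right of 0 in each genotype, with 25 filled in mdx sln+/- and 28 in mdx. Of all 13783 genes tested, 7970 had positive fold changes in mdx sln+/- and 7314 in mdx.

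Between mdx sln+/- and mdx, 0 of the 40 genes passed the test (limma, with the smallest adjusted p of 0.585 for Sp100), and 0% of all 13783 genes tested passed. At an unadjusted p under 0.05 there were 0 of the 40 members and 1186 of all genes, or 8.6%. Differences ran from -0.16 for Dtx3l to 0.36 for Ifi27l2a, with a median of 0.06 beside 0.03 over all genes, and 28 were positive. Positive differences were also seen in 8313 of all 13783 genes tested. The 95% intervals of the 40 differences lay between -0.66 and 1.02, and 39 of the 40 were inside a change of 1 unit on the log2 scale, so smaller differences between the genotypes cannot be judged from these libraries. Over the 42 genes, the mdx sln+/- libraries were all above the mdx libraries in 5 (Dhx58, Ifi203, Oasl2, Samd9l and Sp100) and all below in 1 (Dtx3l), where 16.8% and 8% of all genes had no overlap in those directions. Usp18 had the largest difference among members that rose in both genotypes, 0.32 ± 0.17 with an interval of -0.07 to 0.71 (limma, adjusted p = 0.617). Ifi35, Adar and Trim25, called in mdx and not in mdx sln+/-, differed between the genotypes by -0.16 ± 0.13, -0.08 ± 0.07 and -0.08 ± 0.07 (limma, adjusted p = 0.730, 0.776 and 0.762).

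Within mdx, 1 library stood high in most of these genes. The library mdx 1 was the highest of its group in 36 of the 42 genes, against 32.3% of all genes tested. In mdx sln+/-, library 2 was the highest in 28 of the 42, against 35.6% of all genes, and library 3 was the lowest in 30. The deposited values tie mdx sln+/- 2 to mdx 2, since a contrast that had been taken out of them makes the deviation of the one from its group mean the negative of that of the other (correlation of -1 over transcripts). The place of mdx sln+/- 2 in its group is therefore no observation apart from that of mdx 2. The median deviation of the 40 genes from the WT mean was 0.74, 0.80 and 0.65 in mdx sln+/- 1, 2 and 3, and 0.89, 0.58 and 0.55 in mdx 1, 2 and 3.

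Some markers of macrophages and monocytes were also higher in the mdx genotypes than in WT, and some were lower. Of the 20 markers listed, 19 were measured; 6 rose and 1 fell in mdx sln+/-, and 5 rose and 1 fell in mdx. Their summed level, on the linear scale, was 407.8, 454.3 and 375.6 in mdx sln+/-, 463.7, 363.7 and 387.2 in mdx, and 312.4 and 325.0 in WT, none of them at 0. The highest in mdx sln+/- was library 2, whose deviation is tied to that of mdx 2, and the highest in mdx was again library 1. Adgre1, a macrophage surface receptor, rose by 0.76 ± 0.16 in mdx sln+/- and by 0.78 ± 0.16 in mdx (limma, adjusted p = 0.0246 and 0.0234), while Lyve1, carried by a resident subset, fell by 1.14 ± 0.27 and 1.31 ± 0.27 (adjusted p = 0.0319 and 0.0215). Of 15 lymphocyte and NK cell markers only Cd4 and Ighm were measured, and Ighm rose in both genotypes. Of 7 markers of plasmacytoid dendritic cells only Il3ra and Cox6a2 were measured, and Cox6a2 is also the heart and muscle subunit of cytochrome oxidase, so the list tells nothing of these cells in ventricle. Of 5 atrial myocyte markers only Nppa, the atrial natriuretic peptide, was measured. It differed by 0.91 ± 0.27 in mdx sln+/- without a call and rose by 1.12 ± 0.27 in mdx (limma, adjusted p = 0.0615 and 0.0361). This gene alone does not show whether atrial cells were present. None of 5 blood markers passed, but their median deviation from the WT mean was 0.38, 0.20 and -0.45 in mdx sln+/- and -0.32, 0.29 and 1.27 in mdx, so that mdx 3 stood apart. Endothelial markers had 2 of 10 higher and 0 lower in mdx sln+/-, and 2 higher and 1 lower in mdx, and of 8 fibroblast markers Col1a1 alone rose in each. Of all genes tested, 9.41% were called higher in mdx sln+/- and 8.15% in mdx. The median deviations of the endothelial and fibroblast lists from the WT mean were also highest in library 1 within mdx and in library 2 within mdx sln+/-. The part of these cell types in the interferon genes was not tested.

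**Figure D4:**
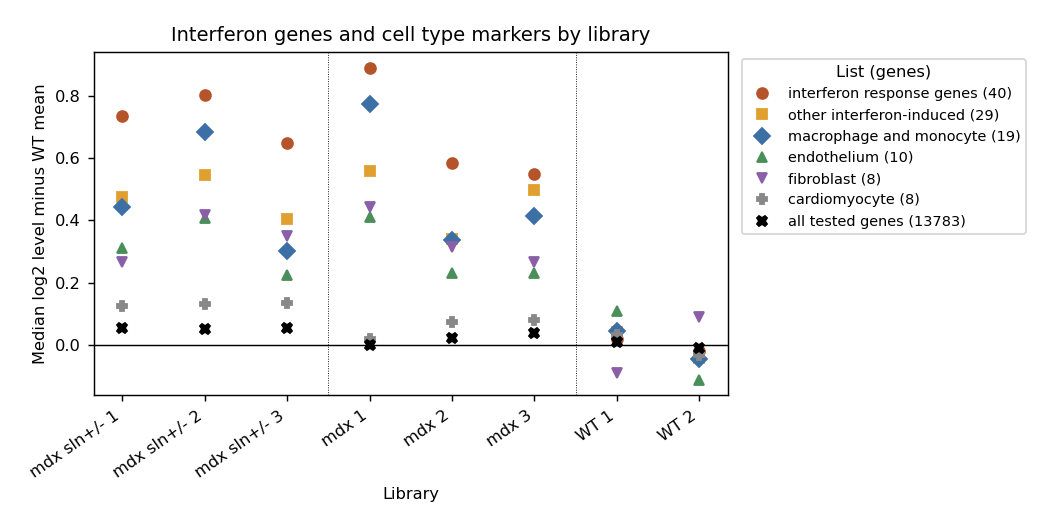
Median log2 level minus the WT mean (vertical axis) of the interferon response genes, of other interferon-induced genes, of 4 cell type marker lists and of all tested genes, in each library (horizontal axis); each point is 1 list in 1 library. Interferon genes, other interferon-induced genes and the macrophage, endothelial and fibroblast markers are all highest in mdx 1. The place of mdx sln+/- 2 is tied to that of mdx 2 by the contrast taken out of the values. The medians of all tested genes stay between -0.01 and 0.06.

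The rest of the pathway was followed with lists that hold no member. None of 21 listed interferon genes was in the table, and their levels were not analysed here. Of 10 receptors, kinases and STAT factors listed, 1 rose and 1 fell in each genotype. Of all genes tested, 9.41% were called higher in mdx sln+/- and 8.15% in mdx, and 6.5% and 6.94% lower. The counts of this list are thus near the shares of all genes, and the lists below are to be read beside the same shares. Ifnar1 differed by 0.19 ± 0.08 in mdx sln+/- and 0.20 ± 0.08 in mdx, and Ifnar2 by 0.32 ± 0.09 and 0.24 ± 0.09, with no call (limma, adjusted p from 0.0528 to 0.140). Stat3, which relays other cytokines, fell by 0.74 ± 0.12 and 0.51 ± 0.12 (limma, adjusted p = 0.00935 in mdx sln+/- and 0.0286 in mdx), and Il10rb, a receptor chain shared with type III interferons, rose by 0.55 ± 0.09 and 0.36 ± 0.09 (adjusted p = 0.0102 and 0.0373).

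Of 18 tested adaptors, kinases and factors of nucleic acid sensing, 4 rose and 1 fell in mdx sln+/-, and 3 rose and 0 fell in mdx. Samhd1, which depletes nucleotides, rose by 0.43 ± 0.11 and 0.57 ± 0.11, and Unc93b1, which carries endosomal Toll-like receptors, by 0.87 ± 0.17 and 0.80 ± 0.17. Of 14 tested negative regulators, 3 rose and 2 fell in each genotype. Irf2bp2, a corepressor, rose by 1.00 ± 0.13 in mdx sln+/- and 0.80 ± 0.13 in mdx, and Pias1, a SUMO ligase, fell by 0.35 ± 0.08 and 0.41 ± 0.08. Of 29 tested genes of a list of other interferon-induced genes, 11 rose and 0 fell in each genotype, with medians of 0.47 in mdx sln+/- and 0.43 in mdx. In 5 of the 29 (Mx2, Oas1g, Epsti1, Slfn9 and Trim34a) no WT library reached the minimum of the filter, so their being tested itself required a difference, and they hold 2 of the 11 calls in each genotype. Sp110, a relative of Sp100, rose by 0.79 ± 0.15 and 1.13 ± 0.15, and Ifi27, a small membrane protein, by 0.76 ± 0.16 and 1.13 ± 0.16. The adjusted p of these calls were between 0.00628 and 0.0373 in mdx sln+/- and between 0.00726 and 0.0254 in mdx (limma).

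The table is given per transcript, so the isoforms of each gene could be followed. The 42 genes had 76 transcripts, and 24 genes had 1 each. At the transcript level 30 of the 76 rose in mdx sln+/- and 26 in mdx, and 0 fell, against 4.6% and 3.62% of all 33027 transcripts called higher and 4.26% and 3.63% called lower (limma). Isoforms of 1 gene share most of their sequence, so their split rests on the authors' quantification. The tests of isoforms against the rest of their gene were added after values had been seen, and over all genes they called 7.93% of transcripts in mdx sln+/- and 5.41% in mdx.

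In Oasl2 a rise was seen in 1 isoform, and the other was too low to judge. Oasl2-205, annotated as subject to nonsense-mediated decay, had log2 levels of 2.69, 2.64 and 2.61 in mdx sln+/-, 2.45, 2.46 and 2.46 in mdx, and 1.04 and 1.61 in WT. The coding Oasl2-201 had 0.59, 0.43 and 0.72 in mdx sln+/-, 0.58, 0.73 and 0.43 in mdx, and 0.63 and 0.49 in WT. The first was above WT in every library and the second overlapped WT. Oasl2-201 stayed below a value of 1, the minimum used for genes, in every library. Transcripts were not filtered for low values, so its lack of change is uncertain. Oasl2-205 changed more than the rest of its gene by 1.30 in mdx sln+/- and 1.11 in mdx (limma diffSplice, adjusted p = 0.00623 and 0.0195), and its annotated reading frame has 56 codons, against 508 in Oasl2-201.

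In Stat2, whose sum over isoforms missed the threshold, Stat2-201 had 3.11, 3.17 and 2.81 in mdx sln+/-, 3.08, 2.78 and 2.90 in mdx, and 2.29 and 2.14 in WT. Stat2-202 had 2.67, 2.94 and 2.61 in mdx sln+/-, 3.06, 2.57 and 2.69 in mdx, and 2.92 and 2.64 in WT, with all groups overlapping. Stat2-201 rose by 0.82 ± 0.16 in mdx sln+/- and 0.71 ± 0.16 in mdx (limma, adjusted p = 0.0261 and 0.0434), and Stat2-202 differed by -0.04 ± 0.20 and -0.01 ± 0.20. The difference between the isoforms did not pass (limma diffSplice, adjusted p = 0.0741 in mdx sln+/- and 0.155 in mdx). Stat2-201 and Stat2-202 share their start and end, with 24 exons each and reading frames of 922 and 923 codons. How reads were split between them is therefore uncertain. Trim25-201 rose by 0.44 ± 0.10 and 0.57 ± 0.10 (limma, adjusted p = 0.0343 in mdx sln+/- and 0.0197 in mdx), while Trim25-203 differed by 0.06 ± 0.12 and 0.10 ± 0.12. The test of their difference did not pass either (limma diffSplice, adjusted p = 0.174 and 0.115). In Sp100, Sp100-213 changed less than the rest of its gene, by -0.90 in mdx sln+/- and -0.88 in mdx (limma diffSplice, adjusted p = 0.00627 and 0.0104). In Parp12, Parp12-201 changed more than Parp12-202 by 0.91 in mdx sln+/- (limma diffSplice, adjusted p = 0.00902) and by 0.59 in mdx without a call (adjusted p = 0.0770), and the genotypes were not tested against each other for this. The log2(value + 1) scale understates the change of a low isoform, which by itself gives a gap to a high isoform of the same gene. For this reason isoforms that differed only in how far they rose are not given as results, and those of Ddx58 are given only as a limit of its call. The same limit holds for Sp100-213, with log2 levels of 0.04 to 0.64 over the libraries, and for Parp12-202, with 0.50 to 1.02. How far these low isoforms changed is therefore uncertain.

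**Figure D5:**
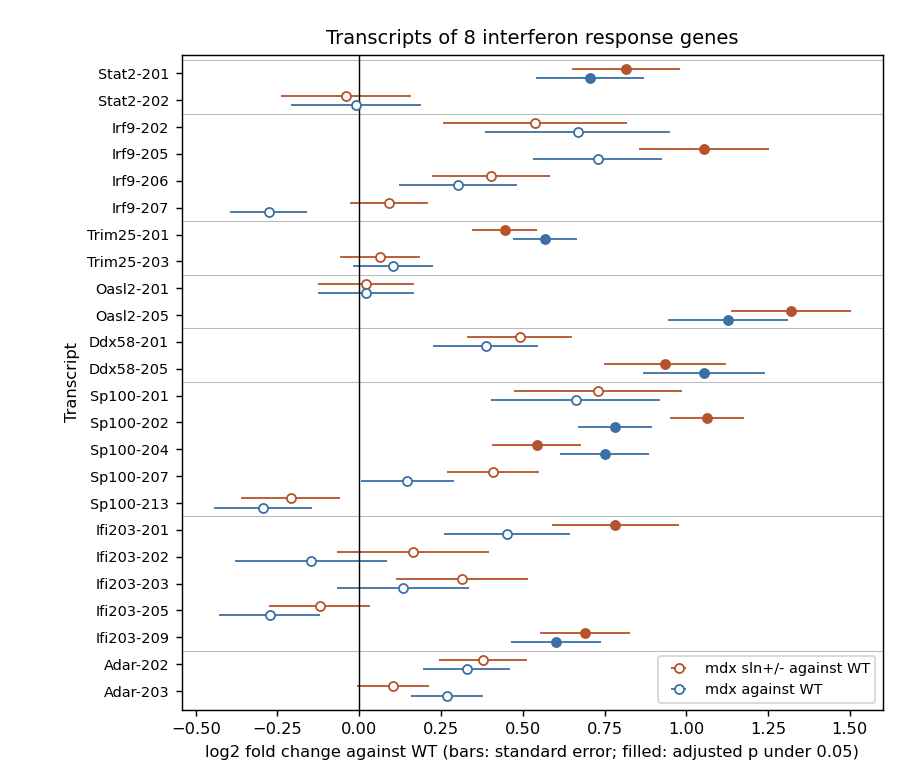
Log2 fold change against WT (horizontal axis) with its standard error for the transcripts of 8 genes chosen after their values were seen, mdx sln+/- above mdx in each row; filled points passed an adjusted p under 0.05. In Oasl2 the fold changes are 1.32 in mdx sln+/- and 1.13 in mdx for one isoform and 0.02 in both genotypes for the other, and Stat2 and Trim25 have 1 filled and 1 open isoform each.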

How the data were processed

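RNA of the left ventricle was sequenced in 8 libraries, and the labels gave each library its genotype. The submitters' processing notes name STAR 2.6.1, the mm10 build, Partek and limma. Per the file headers, the deposited log2 values cover 33027 transcripts in 16 columns, with 2 columns (r1 and r2) a library. That the authors took log2(abundance + 1) was inferred from the values, and no source used here says whether length was corrected for, so levels are not compared between genes. No counts were used, which leaves the sequencing depth unknown; the abundances of a library summed to between 780262 and 924253. The meaning of r1 and r2 is not given; they correlated at 0.981 to 0.987 and were averaged to 1 replicate.

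Linear values were summed over the transcripts of a gene and expressed as log2(value + 1), and genes with at least 1 in at least 2 libraries were tested (13783 kept, 795 left out). One contrast, that of mdx 2 and mdx sln+/- 2 against the remaining 4 libraries of these genotypes, was already taken out of the deposited values, with a largest remaining difference of 5.12e-05 where other such contrasts had SDs of 0.127 to 0.199. The limma model (limma 3.58.1, R 4.3.3) therefore held group and this contrast, with 4 residual degrees of freedom, an empirical Bayes prior that follows the mean (median of 3.37 degrees of freedom), and p-values adjusted over all genes by Benjamini-Hochberg, called under 0.05. The fit was first tested on simulated data.

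The members and gene lists were chosen with earlier results of these data known. In each role list, values in every library are given for the 3 members with the smallest adjusted p in mdx against WT and the 1 with the largest, and for members whose call differed between the genotypes; Irf7, Ifit1, Rsad2, Ifi204, Zbp1, Oasl1 and the isoforms were added after their values were seen. Of each pathway list the 2 genes with the smallest adjusted p are named, plus Ifnar1 and Ifnar2; 1 gene of these lists is not reported here; Mndal was added after its values were seen. Positions and transcript models are those of GENCODE M21, promoters those of RefSeq. Near copies are transcripts of other genes that blastn 2.17.0 aligned at 95% identity or more over 200 bases or more. Python 3.11.15 with pandas 2.3.3 and matplotlib 3.10.9 drew the figures. Alternatives were other scalings, filters, pseudocounts and models, r1 or r2 alone, the most abundant transcript, and libraries left out.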

Additional observations from a re-analysis of the deposited data

How the results depend on the processing

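With 2 or 3 libraries a group, the number of calls depended on the setting far more than the fold changes did. The median log2 fold change of the members stayed between 0.48 and 0.88 in mdx sln+/- and between 0.42 and 0.80 in mdx over all alternatives, the ends being pseudocounts of 5 and 0.1. Between mdx sln+/- and mdx, 0 members were called under every alternative, with each library left out included. Members called in mdx sln+/- against WT were 25 as reported, 14 with name style as a term, 14 with a mean value of at least 5, 7 to 30 with 1 library left out, and 0 without the 2 libraries of lowest Y-linked levels. In mdx against WT they were 28 as reported, 11 with name style as a term, 17 with a mean value of at least 5 (which tested 28 members), 11 with only the compared groups in the fit, 6 to 27 with 1 library left out, and 1 without those 2 libraries. Called transcripts were 30 in mdx sln+/- and 26 in mdx as reported, 17 and 8 with r1 alone, 15 and 10 with r2 alone, and 2 to 31 and 3 to 19 with 1 library left out. With only the compared groups in the fit, the term for the removed contrast takes up mdx sln+/- 2 or mdx 2 alone. The estimate then rests on the other libraries of that group, as when that library is left out. The causes of the changes in these counts were not tested.

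Signs turned in Eif2ak2 and Ifi203, which had no call as genes in either genotype. For Eif2ak2 in mdx sln+/- the difference was -0.069 with name style, -0.051 with median-ratio scaling, -0.038 with upper-quartile scaling, -0.018 with r2 alone, -0.24 without the 2 low Y-linked libraries, and -0.13 to 0.11 with 1 library left out. In mdx it was -0.062, -0.010, -0.00079, -0.013 and -0.13 in the same order, -0.039 with only the compared groups, and -0.16 to 0.24 with 1 left out. For Ifi203 in mdx sln+/- it was -0.12 with the most abundant transcript. In mdx it was -0.27 with that transcript, -0.083 with name style, -0.0076 with median-ratio scaling, -0.016 with r1 alone, -0.23 without the 2 low Y-linked libraries, and -0.24 to 0.26 with 1 left out. Over all single-gene alternatives, 762 values in mdx sln+/- and 714 in mdx kept direction and side of the threshold, 102 and 164 lost their call, 35 and 12 gained one, and 9 and 18 turned sign.

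The replicate numbers were not taken to pair the samples, since deviations of same-numbered libraries correlated at only -0.08 to 0.08 between either mdx genotype and WT, and at -0.27, -1 and -0.36 between the 2 mdx genotypes, the -1 being set by the contrast taken out of the deposited values; with the replicate block, 30 members were called in mdx sln+/- and 29 in mdx, 0 between them, and 32 and 30 transcripts against WT. With group only, which ignores the removed contrast, the counts were 34 and 31 genes and 43 and 38 transcripts. In mdx sln+/- 1 of those 34 genes and 1 of those 43 transcripts were lower. The lower gene was Ifi204. It was also called lower in mdx sln+/- with only the compared groups and with mdx sln+/- 2, mdx 1 or mdx 2 left out. The adjusted p ran from 0.0278 to 0.0367 (limma), beside 0.0731 as reported and up to 0.403 over all alternatives. The difference was -0.98 with only the compared groups, without mdx sln+/- 2 and without mdx 2. These settings give the same estimate from the same mdx sln+/- libraries and do not count as separate results. The difference without mdx 1 was -0.89. Depth is unknown, and what it limits could not be judged.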
